A study of Mus musculus with 12 samples.

Results

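RUNX1C-null pre-megakaryocyte/erythroid progenitors (PreMegEs) were compared with PreMegEs sorted for activity of the proximal Runx1 promoter (P2+). The question was which part of the pro-megakaryocytic P2+ expression program is missing, and which part is kept, in cells that cannot make RUNX1C. The comparison set 3 RUNX1C knockout libraries against 3 P2+ libraries. It covered the 12807 of 41128 annotated genes that reached 1 CPM, the read count scaled to the library's total, in 3 or more of these 6 libraries. The 3 wild-type (WT) and 3 P2- libraries of the same count table were used as points of reference.

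All 12 libraries were made from bone marrow PreMegEs of C57BL/6 mice aged 12 to 16 weeks, and each was a pool of 3 mice. The PreMegE gate took lineage-negative cells that carried cKit and CD150 and lacked Sca1, CD16/32, CD41 and Endoglin. P2+ and P2- cells came from P1-GFP::P2-hCD4/+ mice, heterozygous reporters in which the distal promoter P1 drives GFP and the proximal promoter P2 drives a truncated human CD4. These cells were P1+ and were separated by hCD4. WT PreMegEs were not fractionated. The RUNX1C knockout animals carried GFP in place of RUNX1C at both P1 alleles, with P2 left in place, and the labels describe no hCD4 sort for their PreMegEs. Knockout and P2+ samples therefore differed at once in genotype, in reporter allele and in sort, and their parts in a difference cannot be told apart. The sources used here did not state whether the knockout libraries were prepared and sequenced together with the others, so a batch and the genotype cannot be told apart either.

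RUNX1 is a DNA-binding transcription factor that works with its partner CBFB and is needed for megakaryocyte (Mk) maturation. The distal promoter of its gene gives the RUNX1C isoform and the proximal promoter gives RUNX1B. PreMegEs can produce both Mk and erythroid (Ery) cells. Mks make platelets, with their adhesion receptors and granules, whereas Ery cells turn on genes for heme synthesis and for the red cell membrane under the control of factors such as GATA1 and KLF1.

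Knockout libraries held 11044030 to 11807795 counts and P2+ libraries 11695857 to 14440459, and after TMM normalisation of these totals 3 counts amounted to 0.207 to 0.273 CPM. Levels are given in CPM of the normalised library size for replicates 1, 2 and 3 in that order, and differences as log2 fold changes ± SE with an adjusted p-value from edgeR (n = 3 libraries per group). A gene was called when its adjusted p was under 0.05 and its change was at least 2-fold. Kit transcripts lay between 733 and 1145 CPM in the 6 libraries, whereas Ly6a (Sca1) did not pass 3.97 CPM and Fcgr3 (CD16) did not pass 1.51 CPM. Transcripts of Itga2b (CD41), whose surface protein the gate excluded, were present at 112 to 321 CPM. The 36 immediate early genes sat apart in 1 library: they summed to 13429 CPM in P2+ replicate 2, against 1177 to 2700 CPM in the 10 libraries other than this one and P2- replicate 2 (17717 CPM). P2+ libraries also differed in sex-linked transcripts, with Xist at 5.18 CPM in replicate 2 and Ddx3y at 0.00 CPM in replicate 3, whereas all 3 knockout pools held transcripts of both genes. Of 5 sex-linked genes tested 0 were called.

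Of the 12807 genes, 1454 (11.4%) were called, of which 1066 (8.32%) were lower and 388 (3.03%) were higher in RUNX1C knockout than in P2+ PreMegEs. Without the fold minimum, 4748 genes (37.1%) passed, 2604 of them (20.3%) lower and 2144 (16.7%) higher. The median log2 difference over all genes was 0.00117. The genes that fell included the Mk transcription factors Fli1 and Mef2c, the platelet integrin pair Itga2b and Itgb3, and the granule chemokine Pf4. Those that rose included Ery genes, among them Klf1, Epor, Aqp1 and the iron exporter gene Slc40a1. As a bulk measurement, the data cannot tell fewer cells of a kind from less RNA per cell.

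**Figure D1:**
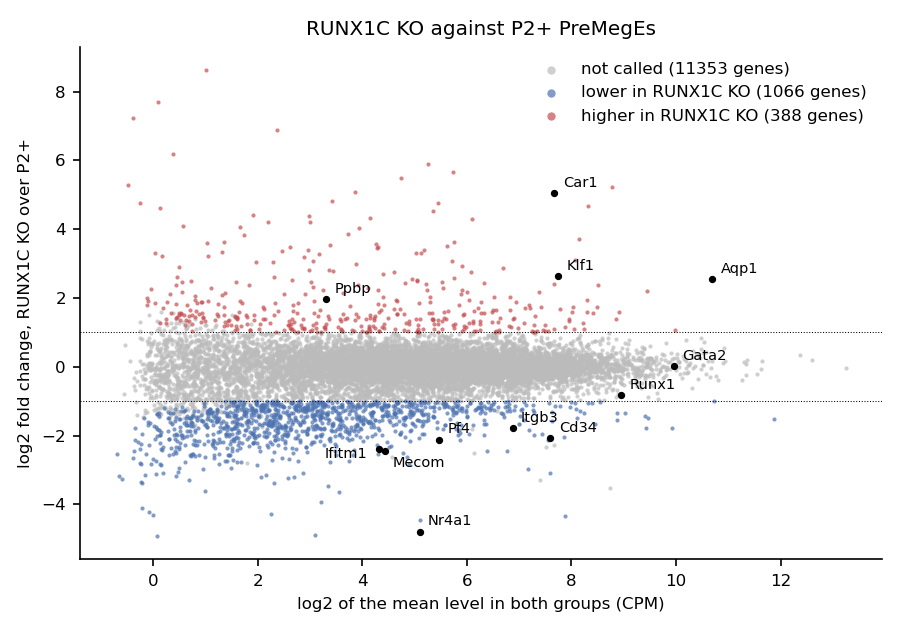
Log2 fold change of RUNX1C knockout against P2+ PreMegEs (y axis) by mean level (x axis, log2 CPM) for the 12807 genes tested. Coloured points are the 1066 genes called lower and the 388 called higher, grey points the 11353 not called; lower calls outnumber higher ones.

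To place these changes, the P2+ program was taken as the 1224 genes at least 2-fold higher in P2+ than in P2- PreMegEs (9.54% of the 12836 tested there), and the P2- program as the 402 genes (3.13%) at least 2-fold lower. Of the 1224 P2+ program genes, 879 (71.8%) were called lower in the knockout than in P2+ cells, 218 (17.8%) were lower with an adjusted p under 0.05 but by less than 2-fold, 127 (10.4%) did not pass the test and 0 were higher. The knockout and P2+ libraries did not overlap for 1140 of these genes (93.1%), as against 50.5% of all genes. Of the 390 P2- program genes that were tested, 298 (76.4%) were called higher and 0 lower. A gene under 1 CPM in all P2+ libraries was tested only where all 3 knockout libraries reached 1 CPM, which favours higher calls here. Outside these programs 187 of 11193 genes (1.67%) were called lower and 90 (0.804%) higher. The P2+ libraries take part both in the definition of the programs and in the comparison with the knockout, so these counts are not independent of each other. With the replicate number as a block in the P2+ against P2- comparison, they were 928 of 1324 P2+ program genes lower and 307 of 426 P2- program genes higher.

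A definition that uses no library of the comparison was therefore set beside it. Its P2- libraries were not independent of the P2+ libraries, however, as same-numbered P2+ and P2- libraries deviated together from their group means (correlations over genes of 0.402, 0.59 and 0.432). They were also alike in Xist (833 and 713 CPM, 5.18 and 0.00 CPM, 2179 and 2732 CPM for numbers 1, 2 and 3), though the labels do not say that they came from the same pools. The comparison of P2- with WT cells called 597 of 12767 genes (4.68%). Of those lower in P2- (4.1% of the genes tested there), 505 could be tested in knockout against P2+. Among them 426 (84.4%) were called lower in the knockout, 0 higher, and their median log2 fold change was -1.59. Of the 71 genes higher in P2- than in WT (0.572% of those tested were called in this direction), 56 (78.9%) were called higher in the knockout, 0 lower, with a median of 2.46. In both sets, a gene under 1 CPM in all libraries of 1 group was tested only where the other group reached 1 CPM. Genes that set P2- cells apart from unfractionated WT cells thus set the knockout apart from P2+ cells in the same direction, against 8.32% and 3.03% of all genes.

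**Figure D2:**
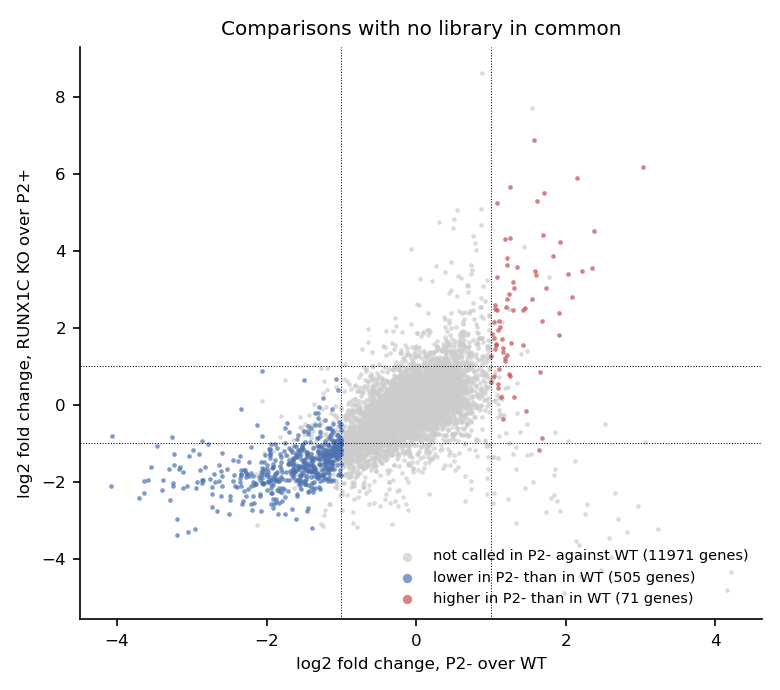
Log2 fold change of RUNX1C knockout against P2+ (y axis) and of P2- against WT PreMegEs (x axis), which share no library. Of the 505 genes called lower in P2- than in WT, 426 were called lower in the knockout, and of the 71 called higher, 56 were called higher.

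Against unfractionated WT PreMegEs, 436 of 12784 genes (3.41%) were called, 341 lower (2.67%) and 95 higher (0.743%) in the knockout. Of the 1149 P2+ program genes tested in this comparison, which shares no library with P2+ against P2-, 212 (18.5%) were called lower and 6 higher than in WT. With no fold minimum 492 (42.8%) were lower and 15 higher, where 8.76% of all genes were lower and 6.18% higher. The median log2 difference of the P2+ program from WT was -0.55, as against -1.32 from P2+ cells. Against P2- cells, 64 of 12588 genes (0.508%) were called, 55 higher (0.437%) and 9 lower (0.0715%) in the knockout. Of the 1043 P2+ program genes tested there 54 (5.18%) were higher and 0 were lower, with a median log2 difference of 0.44. These genes had been chosen as low in the same P2- libraries, which favours higher values in the knockout. A gene under 1 CPM in all P2- libraries was also tested only where all 3 knockout libraries reached 1 CPM. This count and this median are therefore a description. The knockout and P2- libraries had a larger spread between replicates than the knockout and WT libraries, at a biological coefficient of variation of 14.1% against 9.77%.

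Expressed as a position between the mean P2- level (0%) and the mean P2+ level (100%) in CPM, the median P2+ program gene lay at 15.9% in the knockout, with quartiles of 6.62% and 25%. In WT cells the median was 43.5%, with quartiles of 31.7% and 58.8%. For the P2- program the medians were 13.8% in the knockout and 48.8% in WT. The knockout thus lay between P2- and WT cells for the middle of both programs. These positions are a description, since the P2+ and P2- libraries chose the genes.

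**Figure D3:**
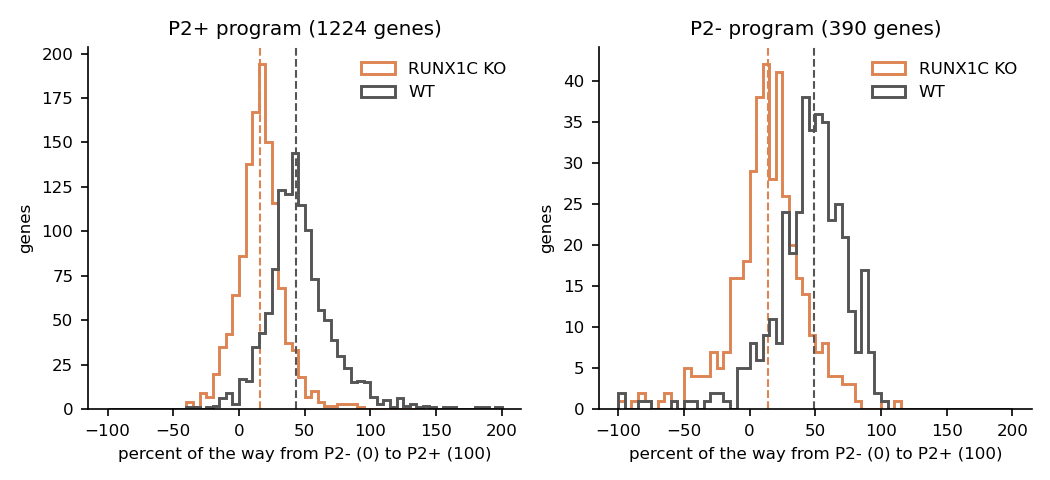
Distribution over genes of the position of RUNX1C knockout and WT PreMegEs between P2- (0%) and P2+ (100%), for the P2+ program and the P2- program; values beyond the axis are drawn at its ends. The dashed medians lie at 15.9% and 13.8% for the knockout and at 43.5% and 48.8% for WT.

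Runx1 itself (ENSMUSG00000022952, GRCm38 chr16:92601466-92826149, minus strand) is counted over transcripts of both promoters, so its total does not check the loss of RUNX1C. P2+ cells were heterozygous for the reporter allele, and the paper speaks of Runx1 haploinsufficiency in reporter cells. The groups thus differed in the Runx1 alleles themselves, and the part of this in the totals was not tested. Runx1 was at 341, 382 and 358 CPM in knockout libraries, at 659, 622 and 614 CPM in P2+ and at 363, 387 and 358 CPM in WT. Knockout libraries were all below P2+ ones and overlapped WT. The difference from P2+ was -0.82 ± 0.06 (95% interval -0.97 to -0.68, adjusted p = 5.52e-06) and that from WT was -0.05 ± 0.06 (adjusted p = 0.702). Runx2, its paralog, followed the same order, with a difference from P2+ of -0.89 ± 0.08 (adjusted p = 1.26e-05), although a transcript on its other strand, Runx2os1, makes its counts uncertain, as does Gm26626 for Runx1. Cbfb, the partner subunit, differed by -0.53 ± 0.06 from P2+ (adjusted p = 8.28e-05). Runx3 did not pass the test (-0.20 ± 0.09, adjusted p = 0.0938), and passed it at -0.28 when P2+ replicate 1 was left out.

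Among 13 regulators of Mk development, 5 were called lower and 0 higher in the knockout, and 8 were lower at an adjusted p under 0.05, with a list median of -0.82. Over all genes 8.32% were called lower and 3.03% higher, and 20.3% were lower and 16.7% higher at any fold, which are the shares to set beside each list. Fli1, an ETS factor that drives platelet genes, was at 162, 184 and 162 CPM in knockout and at 386, 376 and 458 CPM in P2+ libraries (log2 difference -1.28 ± 0.09, adjusted p = 2.74e-06). Its level in WT was 255, 279 and 261 CPM, above all knockout libraries (-0.65 ± 0.07, adjusted p = 3.18e-06). Mef2c, a MADS-box factor, was at 241, 268 and 206 CPM in knockout, at 625, 744 and 718 CPM in P2+ and at 527, 579 and 520 CPM in WT. Its fall was -1.56 ± 0.10 against P2+ and -1.19 ± 0.08 against WT (adjusted p = 1.34e-06 and 1.77e-08), which left it near the P2- level of 197, 201 and 201 CPM. Ets1 also fell against both (-1.95 ± 0.23 and -1.27 ± 0.19), as did Meis1 (-1.33 ± 0.10 and -0.65 ± 0.07), whose gene overlaps the antisense Gm16140.

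Of the regulators not called, 5 did not pass the test, among them Gata2, Nfe2 and Bach1, and the other 3 were lower by less than 2-fold. Gata2, which marks early Mk and mast cell progenitors, was at 1019, 964 and 1038 CPM in knockout and at 892, 1052 and 1016 CPM in P2+ libraries. The groups overlapped and the 95% interval of the difference ran from -0.13 to 0.17. The p45 subunit gene Nfe2 differed by 0.13 ± 0.07 (adjusted p = 0.174) and Bach1 by -0.07 ± 0.07 (adjusted p = 0.468). Erg, an ETS factor of stem cells and Mks, was lower (-0.80 ± 0.08, adjusted p = 2.43e-05), by less than 2-fold, and did not pass the test against WT (-0.19 ± 0.09, adjusted p = 0.162).

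**Figure D4:**
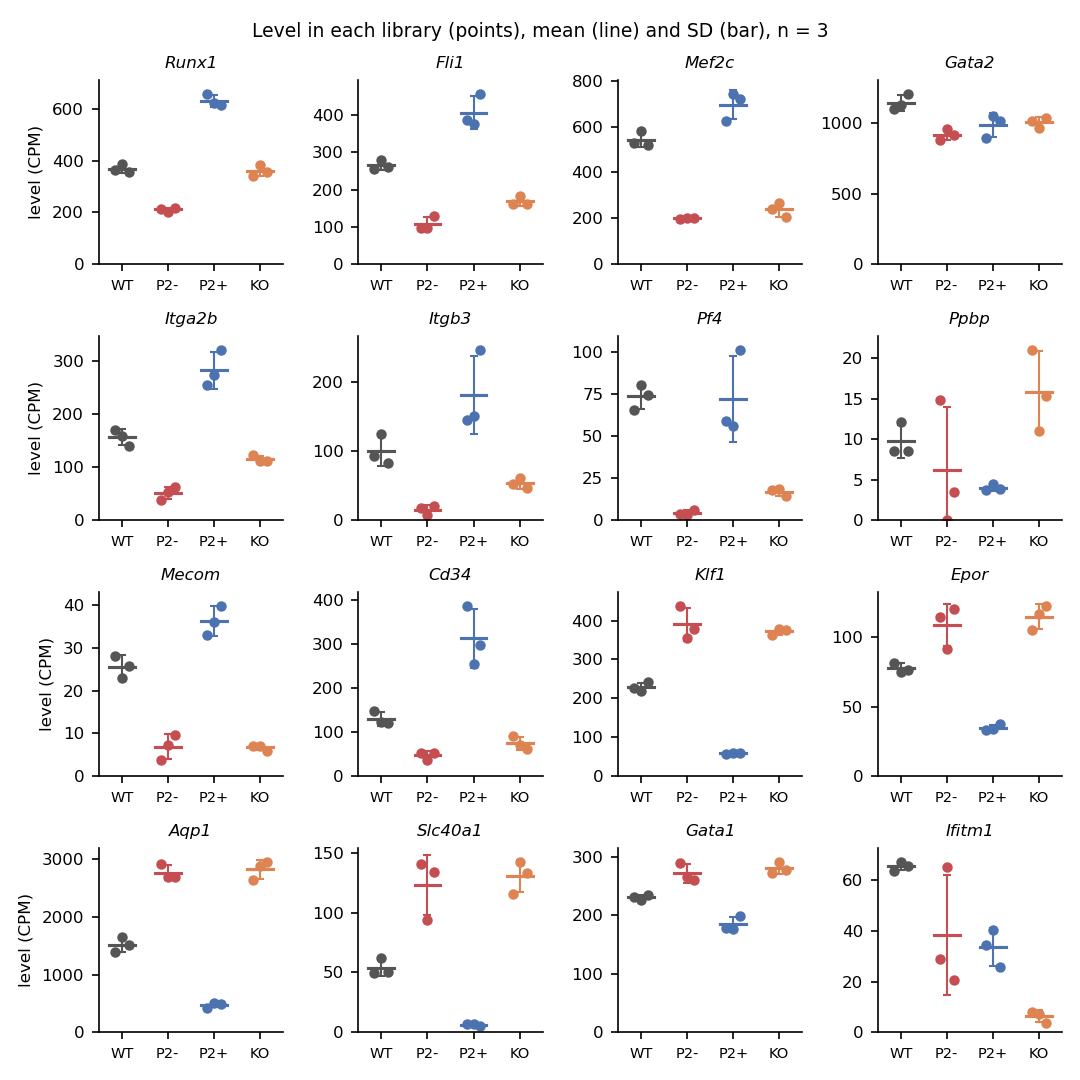
Level (y axis, CPM, linear from 0) of 16 genes in each of the 12 libraries, by group, with points for libraries, a line at the group mean and a bar of 1 SD (n = 3). Knockout points lie below P2+ for Runx1, Fli1, Mef2c, Itga2b, Itgb3, Pf4, Mecom, Cd34 and Ifitm1, above P2+ for Klf1, Epor, Gata1, Aqp1, Slc40a1 and Ppbp, and among P2+ for Gata2.

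Of 22 tested surface receptors of Mks and platelets, 12 were called lower and 0 higher, and 18 were lower at any fold (list median -1.10). Their CPM summed to 2090 to 2198 in knockout libraries, 3221 to 4098 in P2+, 2337 to 2702 in WT and 1473 to 1625 in P2-. Itga2b (CD41), the alpha chain of the fibrinogen receptor, was at 122, 112 and 112 CPM in knockout and at 253, 273 and 321 CPM in P2+ libraries (-1.31 ± 0.09, adjusted p = 2.97e-06). Its partner Itgb3 was at 53.0, 60.9 and 46.2 CPM and at 146, 152 and 247 CPM (-1.78 ± 0.19, adjusted p = 4.15e-05). All 3 knockout libraries lay below every P2+ library for both chains, and above every P2- library, where Itga2b reached 61.6 CPM and Itgb3 reached 20.1 CPM. The differences from P2- were 1.17 for Itga2b (adjusted p = 3.86e-03) and 1.80 for Itgb3 (adjusted p = 8.36e-03).

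The 4 subunit genes of the von Willebrand factor receptor were all lower than in P2+, by different amounts, and the differences between them were not tested. Gp1bb was at 11.8, 11.8 and 10.0 CPM in knockout and at 31.2, 41.4 and 63.4 CPM in P2+ libraries, and fell against P2+ (-2.03 ± 0.23, adjusted p = 7.09e-05) and WT (-1.35 ± 0.14, adjusted p = 2.66e-06). Gp9 was at 30.4, 30.5 and 31 CPM against 57.7, 57.4 and 87.3 CPM, which was lower than P2+ (-1.15 ± 0.15, adjusted p = 1.89e-04, and -0.92 without P2+ replicate 3, under 2-fold) but did not pass the test against WT (-0.24 ± 0.11, adjusted p = 0.152). Gp1ba fell by 0.69 on the log2 scale against P2+ (SE 0.12, adjusted p = 9.11e-04). Gp5 was at 231, 247 and 260 CPM in knockout, 292, 294 and 366 CPM in P2+ and 174, 183 and 204 CPM in WT. It was thus below P2+ (-0.38 ± 0.09, adjusted p = 9.16e-03) and above WT (0.39 ± 0.07, adjusted p = 9.61e-04), with no overlap in either case. Treml1, a platelet alpha-granule receptor, had the same pattern: 36.1, 45.6 and 38.5 CPM in knockout, 59.8, 88.4 and 87.9 CPM in P2+ and 19.4, 24.8 and 25.2 CPM in WT. Its difference was -0.99 ± 0.15 from P2+ (adjusted p = 4.76e-04) and 0.79 ± 0.13 from WT (adjusted p = 3.19e-04).

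The thromboxane receptor gene Tbxa2r differed by -2.11 ± 0.26 from P2+ (adjusted p = 1.03e-04) and by -1.29 ± 0.22 from WT. F2rl2, a thrombin-responsive receptor, differed by -1.66 ± 0.17 from P2+ (adjusted p = 4.00e-05). Esam, an adhesion molecule of Mks and endothelium, was at 11.1, 11.2 and 11.8 CPM in knockout, 34.0, 38.4 and 52.9 CPM in P2+ and 14.2, 12.7 and 11.1 CPM in WT. It fell against P2+ (-1.89 ± 0.17, adjusted p = 1.45e-05) and did not pass the test against WT (-0.16 ± 0.16, adjusted p = 0.586).

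Of 16 tested genes for Mk granule cargo, 9 were called lower and 1 higher (list median -1.28). Pf4, which encodes platelet factor 4, was at 17.7, 18.3 and 14.2 CPM in knockout, 58.7, 56.1 and 101 CPM in P2+ and 65.8, 80.4 and 74.4 CPM in WT. Knockout libraries lay below all libraries of both groups, by -2.11 ± 0.22 against P2+ (adjusted p = 3.42e-05) and by -2.14 ± 0.12 against WT (adjusted p = 1.45e-09). They stayed above P2-, at 3.58, 3.08 and 6.14 CPM (difference 1.95, adjusted p = 4.79e-03). Serpine2, a secreted protease inhibitor, fell to a like degree against both groups (-2.10 ± 0.35 and -2.05 ± 0.20, adjusted p = 9.12e-04 and 1.57e-06). Vwf was at 27.9, 40.2 and 28 CPM in knockout and at 59.2, 57.0 and 120 CPM in P2+ libraries (-1.31 ± 0.26, adjusted p = 2.85e-03), and was under 2-fold lower without P2+ replicate 3 (-0.87). Selp, the P-selectin of alpha-granules, differed by -2.56 ± 0.29 (adjusted p = 6.02e-05), and antisense genes overlap it. Angpt1, a growth factor stored by Mks, fell from 975, 1018 and 1113 CPM in P2+ to 371, 410 and 341 CPM (-1.48 ± 0.08, adjusted p = 3.84e-07), and overlaps the antisense Gm17473.

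The single cargo gene called higher was Ppbp, the precursor of a platelet chemokine of the same family as Pf4. It was at 21.1, 11 and 15.4 CPM in knockout and at 3.69, 4.49 and 3.82 CPM in P2+ libraries, with no overlap (1.97 ± 0.25, adjusted p = 1.59e-04). Ppbp was at 8.60, 12.1 and 8.53 CPM in WT and at 14.9, 0.00 and 3.53 CPM in P2-. Against WT it differed by 0.70 ± 0.22 (adjusted p = 0.0374), and the P2- libraries spread too widely to be told from the knockout (adjusted p = 0.452). Ppbp and Pf4 are neighbours on the plus strand of chromosome 5, at chr5:90768518-90770063 and chr5:90772435-90773383, and moved in opposite directions between knockout and P2+ cells. No annotated exon on the other strand overlaps either gene.

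The promoters of this pair are shown, since the neighbours moved in opposite directions, with those of Gp9, lower in the knockout, and Klf1, higher, as one gene of each lineage. Each is the 250 bases before the RefSeq start (GRCm38.p6, plus strand, 5′ to 3′), at chr5:90772185-90772434 for Pf4, chr5:90768268-90768517 for Ppbp, chr6:87777820-87778069 for Gp9 and chr8:84901732-84901981 for Klf1. Capitals mark the RUNX core letters, TGTGGT or TGCGGT, searched on both strands; the matches found read ACCACA on the printed strand.
Pf4: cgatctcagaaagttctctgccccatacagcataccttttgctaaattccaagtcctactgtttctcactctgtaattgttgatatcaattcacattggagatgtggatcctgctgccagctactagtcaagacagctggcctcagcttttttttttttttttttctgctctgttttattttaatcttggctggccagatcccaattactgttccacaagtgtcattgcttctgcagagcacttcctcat
Ppbp: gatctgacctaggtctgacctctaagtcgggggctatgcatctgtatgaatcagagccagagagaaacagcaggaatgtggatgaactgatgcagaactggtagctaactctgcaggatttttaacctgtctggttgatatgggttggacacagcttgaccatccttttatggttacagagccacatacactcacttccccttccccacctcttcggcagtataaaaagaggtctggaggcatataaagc
Gp9: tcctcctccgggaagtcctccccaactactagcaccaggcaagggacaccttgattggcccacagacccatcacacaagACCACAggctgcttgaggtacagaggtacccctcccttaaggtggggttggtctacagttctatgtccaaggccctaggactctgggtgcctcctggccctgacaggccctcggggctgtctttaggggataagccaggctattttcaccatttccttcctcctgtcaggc
Klf1: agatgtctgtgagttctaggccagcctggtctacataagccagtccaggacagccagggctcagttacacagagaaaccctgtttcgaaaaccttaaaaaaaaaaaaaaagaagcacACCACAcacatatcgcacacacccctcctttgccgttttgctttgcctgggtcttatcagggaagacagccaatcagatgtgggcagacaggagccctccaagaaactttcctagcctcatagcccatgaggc
Gp9 and Klf1 held 1 match each, beginning at -171 and -133 from the start, and Pf4 and Ppbp held 0. Gp9 and Klf1 were picked from many called genes, so these matches do not stand for either lineage. The letters occur in 18.6% of the 32851 mouse promoters of this length, and a match is a description of the sequence, not a bound site. Of the 12807 tested genes 8780 were found in the promoter table by symbol, and 21.1% of these held the RUNX letters, as did 183 of 765 genes called lower (23.9%) and 62 of 267 called higher (23.2%). The GATA letters AGATAA or TGATAA, on either strand, were in 11.3% of all matched genes, 107 of the lower (14%) and 56 of the higher ones (21%). Since less than 80% of the tested genes were matched, these shares are void as a comparison of the groups.

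Signalling and cytoskeletal genes of Mks followed the receptors, with 10 of 24 called lower and 0 higher (list median -0.77). Plek (pleckstrin) was at 306, 359 and 269 CPM in knockout and at 964, 1008 and 1233 CPM in P2+ libraries (-1.79 ± 0.12, adjusted p = 1.34e-06), with an antisense overlap by Cnrip1. Rap1b, a small GTPase of integrin activation, differed by -1.44 ± 0.09 (adjusted p = 1.42e-06). Both chains of soluble guanylate cyclase fell, Gucy1a3 by -2.12 ± 0.20 and Gucy1b3 by -1.68 ± 0.25 (adjusted p = 1.92e-05 and 4.17e-04). Actn1, an actin cross-linker, fell against P2+ (-2.02 ± 0.21) and WT (-1.69 ± 0.21), with antisense genes in its exons. Tubb1, the platelet beta-tubulin, was at 7.17, 9.16 and 9.47 CPM in knockout and at 5.2, 4.77 and 5.65 CPM in P2+ libraries (0.71 ± 0.21, adjusted p = 0.0229). It was thus higher by less than 2-fold, and did not pass the test without knockout replicate 2 or 3 (0.66 and 0.63) or with all 12 libraries in 1 fit (adjusted p = 0.0537).

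Myh10, the non-muscle myosin chain that RUNX1 is known to silence as Mks mature, rose. It was at 54.9, 58.6 and 55.9 CPM in knockout and at 9.89, 8.85 and 11.2 CPM in P2+ libraries (2.49 ± 0.12, adjusted p = 2.10e-07). WT libraries stood at 29.8, 48.6 and 38.0 CPM and P2- libraries at 85.5, 66.3 and 90.1 CPM, so the knockout lay between these without overlap. The list of 11 tested RUNX1 targets in Mks that holds Myh10 and Pf4 had 3 members called lower and 1 higher.

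The pro-erythroid side moved the other way. Of 17 Ery regulators, 6 were called higher and 1 lower, and 11 were higher at any fold (list median 0.51). Klf1 (ENSMUSG00000054191, chr8:84901928-84905291) is placed by GENCODE from a start inside the promoter stretch printed above, which ends at the RefSeq start. It was at 362, 379 and 375 CPM in knockout and at 58.3, 58.6 and 59.7 CPM in P2+ libraries. This was a rise of 2.65 ± 0.07 (95% interval 2.5 to 2.80, adjusted p = 4.36e-09), to above the 227, 220 and 241 CPM of WT (0.69 ± 0.06, adjusted p = 3.85e-07). P2- libraries, at 438, 355 and 377 CPM, overlapped the knockout. The erythropoietin receptor gene Epor was at 105, 116 and 122 CPM against 33.1, 33.7 and 37.4 CPM in P2+ (1.71 ± 0.09, adjusted p = 3.41e-07). Gfi1b, a repressor that acts in Ery and Mk cells, was at 211, 226 and 218 CPM against 95.3, 86.8 and 134 CPM (1.04 ± 0.14, adjusted p = 1.89e-04), a change under 2-fold without P2+ replicate 1 or 2 (0.96 and 0.92). It was higher than in WT as well (0.65 ± 0.06). The transferrin receptor gene Tfrc rose by 1.22 ± 0.13, Klf3 by 1.63 ± 0.14 and the adaptor gene Ldb1 by 1.59 ± 0.10, with antisense overlaps for Klf3 and Ldb1. Gata1 was higher by less than 2-fold (0.59 ± 0.07, adjusted p = 1.11e-04), whereas Tal1 and Lmo2 did not pass the test (0.15 ± 0.06 and -0.07 ± 0.05), although Tal1 passed it at 0.19 without P2+ replicate 3. Cited2, a transcriptional coregulator, was the member that fell (-1.15 ± 0.11, adjusted p = 2.43e-05).

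Heme and iron genes had 8 of 22 members called higher and 0 lower (list median 0.67), and summed to 2014 to 2120 CPM in knockout and 1092 to 1244 CPM in P2+ libraries. Slc40a1, which encodes ferroportin, was at 116, 142 and 133 CPM in knockout and at 6.62, 7.26 and 5.73 CPM in P2+ libraries (4.30 ± 0.12, adjusted p = 5.43e-09). It was also above WT, at 49.7, 61.7 and 50.7 CPM (1.26 ± 0.09, adjusted p = 6.45e-08). Blvrb rose by 2.43 ± 0.15 and Cpox, an enzyme of heme synthesis that Gpr15 overlaps on the other strand, by 1.71 ± 0.08. The heme enzyme Urod was higher by less than 2-fold (0.67 ± 0.09), and the ferritin chain Fth1 was near the threshold (0.23 ± 0.09, adjusted p = 0.0546), which it passed under 7 of 18 alternatives, such as DESeq2 (adjusted p = 0.0246).

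Of 23 red cell membrane genes 13 were called higher and 0 lower (list median 1.43). Their sum was 6312 to 7029 CPM in knockout, 2013 to 2146 CPM in P2+ and 3987 to 4602 CPM in WT libraries, and overlapped that of P2- (6527 to 7372 CPM). Aqp1, the water channel of red cells, was at 2632, 2889 and 2952 CPM in knockout and at 427, 508 and 497 CPM in P2+ libraries (2.55 ± 0.08, adjusted p = 5.43e-09). The Rh antigen gene Rhd was at 7.78, 6.76 and 7.2 CPM against 0.335, 0.484 and 0.153 CPM (4.41 ± 0.39, adjusted p = 1.26e-05). Its partner Rhag rose by 2.76 ± 0.17. Kel, a blood group protease gene, rose by 3.45 ± 0.38, and by 4.33 when P2+ replicate 2 was left out. Sptb, which encodes beta-spectrin, was lower (-0.75 ± 0.18, adjusted p = 8.78e-03), although Plekhg3 overlaps it on the other strand. Globin transcripts summed to 2.09 to 19.6 CPM in knockout and 4.81 to 33.5 CPM in P2+ libraries, and 0 of the 2 genes tested were called.

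**Figure D5:**
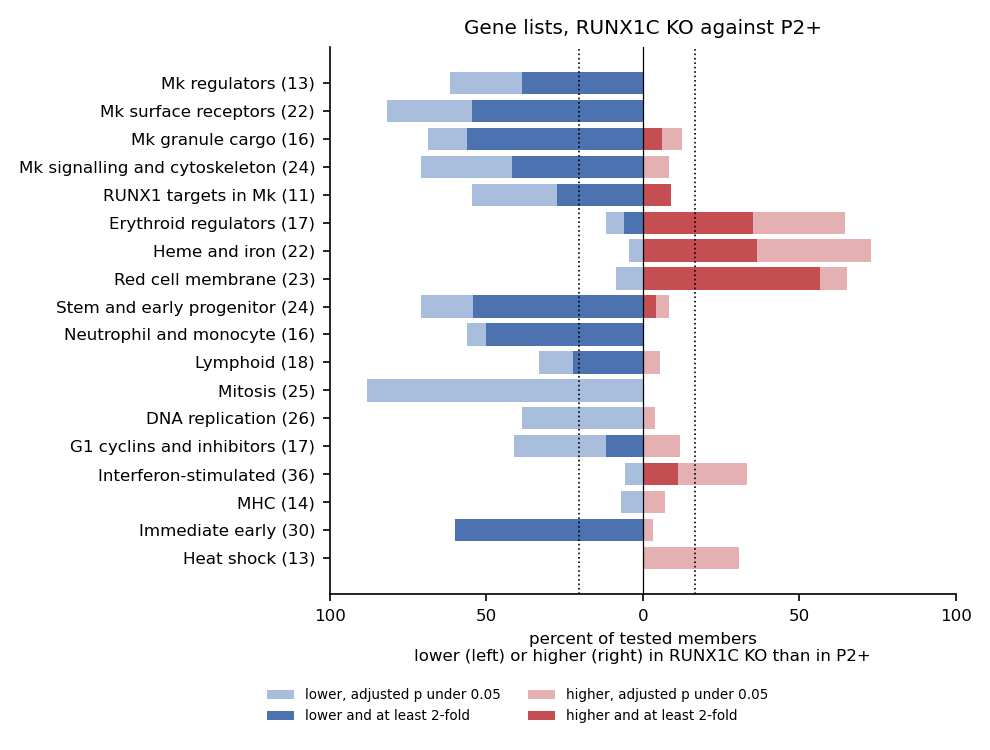
Share of tested members (x axis, percent) that were lower or higher in RUNX1C knockout than in P2+ PreMegEs at an adjusted p under 0.05, for gene lists with at least 10 tested members. Dotted lines mark the shares over all genes, 20.3% lower and 16.7% higher; the Mk receptor, granule and mitosis lists extend to the lower side and the heme and red cell membrane lists to the higher side.

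The 10 largest rises with at least 10 CPM were all genes of the P2- program. Car1, a carbonic anhydrase of early Ery progenitors, was at 377, 378 and 435 CPM in knockout and at 13, 12.7 and 9.69 CPM in P2+ libraries (5.06 ± 0.12, adjusted p = 4.36e-09). WT cells held 332, 343 and 361 CPM, and the difference from WT was 0.19 ± 0.07 (adjusted p = 0.0643). Ermap, an Ery membrane protein, rose by 5.23 ± 0.33 and Pklr, the red cell pyruvate kinase, by 5.67 ± 0.17. Tspo2 rose by 4.76 ± 0.26, and the others were Sphk1, Slc38a5, Slc25a21, Prss50, Atp1b2 and Slc26a1. Slc26a1 was at 9.44, 10.0 and 11.4 CPM in knockout and at 0.252, 0.00 and 0.00 CPM in P2+ libraries. Taken against a floor of 3 counts in each library, it was at least 44.8-fold higher; Idua overlaps it on the other strand.

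Among the 10 largest falls, 7 were of genes at high levels in P2+ replicate 2 alone among the P2+ libraries (Nr4a1, Cd69, Socs3, Dusp5, Klf6, Maff and Csrnp1). Without that library Nr4a1, Klf6, Maff and Csrnp1 differed by less than 2-fold (-0.99 to -0.95), and with limma voom 0 of the 7 passed the test. The other 3 were Zfp827, Cav2 and Ffar2. Zfp827, a zinc finger gene, was at 0.350, 1.20 and 1.91 CPM in knockout, 10.3, 11.7 and 10.2 CPM in P2+ and 8.12, 8.54 and 11.2 CPM in WT (-3.23 ± 0.39 and -3.01 ± 0.37). Ffar2, a receptor for short-chain fatty acids, was at 1.57, 2.31 and 1.46 CPM, against 10.9, 16.4 and 8.40 CPM in P2+ and 22.0, 21.5 and 15.5 CPM in WT. Both genes were thus low in knockout and P2- cells and high in P2+ and WT cells. Cav2 was at 1.4, 0.942 and 2.28 CPM against 14.4, 10.6 and 14.1 CPM in P2+ (-3.09 ± 0.30, adjusted p = 2.60e-05).

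Of 24 tested genes of stem and early progenitor cells 13 were called lower and 1 higher (list median -1.28). The 26 genes of the list summed to 2350 to 2602 CPM in knockout and 2601 to 2806 CPM in P2+ libraries, so that the sum differed little and its ranges touched. Mecom, a regulator of stem cell maintenance, was at 7.17, 7.11 and 6.01 CPM in knockout, 33.0, 36.0 and 39.8 CPM in P2+ and 28.2, 22.8 and 25.7 CPM in WT. It fell against both (-2.43 ± 0.14 and -1.93 ± 0.15, adjusted p = 7.83e-07 and 1.62e-07), to a level that overlapped P2-, with the antisense Mecomos in its locus. Cd34 was at 90.3, 71.7 and 61.9 CPM in knockout and at 386, 254 and 298 CPM in P2+ libraries (-2.08 ± 0.16, adjusted p = 5.69e-06), and overlaps the antisense Gm16897. Hlf differed by -1.44 ± 0.11 and Mycn by -1.26 ± 0.15 from P2+, and by -0.56 ± 0.09 and -1.06 ± 0.09 from WT. The member called higher was Mn1, at 11.9, 12.8 and 14.6 CPM against 5.87, 3.87 and 4.27 CPM (1.48 ± 0.21, adjusted p = 3.52e-04).

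Of the marker lists for other blood lineages, neutrophil and monocyte genes moved with the comparison. Of 16 tested neutrophil and monocyte genes 8 were called lower and 0 higher, and the 24 genes of the list summed to 159 to 221 CPM in knockout, 450 to 615 CPM in P2+, 263 to 461 CPM in WT and 130 to 242 CPM in P2- libraries. Mpo was at 44.5, 23.2 and 13.8 CPM against 185, 52.5 and 75.6 CPM in P2+ (-1.95 ± 0.47, adjusted p = 7.47e-03), and differed by -1.26 when P2+ replicate 1 was left out. Lyz2 was at 58.2, 59.0 and 48.7 CPM against 175, 186 and 193 CPM (-1.75 ± 0.09, adjusted p = 3.15e-07), while the defining late marker Cebpe was at or under 3 counts in all 12 libraries. Lymphoid genes had 4 of 18 called lower, but 7 without P2+ replicate 2 and 9 without P2+ replicate 3, and the 26 genes of the list summed to 944 to 1021 CPM in knockout and 761 to 1014 CPM in P2+ libraries. Cd3d, Cd3g and Cd8a were at or under 3 counts in all libraries. Mast, basophil and eosinophil genes were mixed, with 3 of 8 lower and 1 higher and overlapping sums of 1194 to 1292 CPM in knockout and 1132 to 1371 CPM in P2+ libraries. Ms4a2 fell by 1.34 on the log2 scale (SE 0.23) and Il1rl1 rose by 1.74 ± 0.18. Of 5 tested macrophage genes 0 were called, and the list summed to 17.8 to 20.9 CPM in knockout and 19.8 to 22.9 CPM in P2+ libraries. Of 3 tested endothelial and stromal genes 1 was called lower and 2 were lower at any fold, and the 11 genes of the list summed to 57.4 to 69.3 CPM in knockout, 89.1 to 110 CPM in P2+ and 95.7 to 147 CPM in WT libraries. The part of these lineages in the differences above was not tested.

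Mitosis genes were lower by a small amount. Of 25 mitosis genes 22 were lower at an adjusted p under 0.05 and 0 were called at 2-fold, with a list median of -0.65, and 16 (64%) had a 95% interval within 2-fold of P2+, where 20.3% of all genes were lower at any fold and 73% had such an interval. Ccna2 was at 191, 212 and 188 CPM in knockout, 407, 297 and 352 CPM in P2+ and 198, 203 and 218 CPM in WT (-0.85 ± 0.11 and -0.07 ± 0.07), with Exosc9 on its other strand. The list had a median difference of -0.13 from WT, with 4 members lower. Of 26 DNA replication genes 10 were lower and 1 higher at any fold, and all 26 had an interval within 2-fold of P2+, against the same 73% of all genes. Of 17 G1 cyclins and inhibitors 7 were lower and 2 higher at any fold, with 2 called lower. Myc was higher, at 665, 750 and 664 CPM against 400, 400 and 396 CPM (0.78 ± 0.06, adjusted p = 7.96e-06), and did not pass the test against WT (0.09 ± 0.06, adjusted p = 0.393).

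The kept part of the P2+ program was small. For 67 of the 1224 genes (5.47%) the 95% interval of the difference lay within 2-fold of P2+. Over all tested genes 73% had such an interval. Of the 67 genes 12 also had an adjusted p of 0.05 or more, and the rest were lower than in P2+. The program was chosen as high in the same P2+ libraries, which favours lower values in the knockout. These shares are therefore a description. Itga9, an integrin alpha chain, was at 11.1, 13.4 and 11.7 CPM in knockout and at 13.8, 8.85 and 15.6 CPM in P2+ libraries, overlapping groups (interval -0.56 to 0.38). It was at 5.13, 2.96 and 5.69 CPM in WT and at 3.19, 3.94 and 4.66 CPM in P2-, below every knockout library (differences 1.37 and 1.60, adjusted p = 4.60e-04 and 4.79e-03). Fhdc1, a formin-domain gene linked to microtubules, was at 13.6, 19.7 and 17.4 CPM in knockout and at 16.5, 22.7 and 16.7 CPM in P2+ libraries (interval -0.56 to 0.24). Against WT, at 4.79, 7.10 and 5.25 CPM, it was higher by 1.56 ± 0.20 (adjusted p = 3.22e-05). Both genes thus overlapped the P2+ level in knockout cells. The amino acid transporter gene Slc7a8 was below P2+ (-0.75 ± 0.10) and above WT (0.89 ± 0.12).

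In part, Mk receptor and signalling genes of knockout cells were above the P2- level. Receptor sums of unfractionated WT cells (2337 to 2702 CPM) were above those of knockout (2090 to 2198 CPM) and P2- cells (1473 to 1625 CPM). The list members counted below are those tested in knockout against P2+, and some may not have been tested against P2-. Of the 22 Mk surface receptors 7 were called higher in knockout than in P2- and 0 lower. Of the 24 signalling genes 4 were higher, and of the 16 cargo genes 2, where 0.437% of the genes tested against P2- were higher. Besides Itga2b, Itgb3 and Pf4 these included Ptgs1, the platelet cyclooxygenase gene, at 27.5, 30.9 and 24.4 CPM in knockout, 82.9, 79.7 and 92.2 CPM in P2+ and 8.05, 7.41 and 9.89 CPM in P2- (difference from P2- 1.70, adjusted p = 9.81e-04). Gucy1b3 was at 5.86, 8.30 and 7.29 CPM in knockout and 1.04, 1.06 and 1.55 CPM in P2- (2.53, adjusted p = 3.71e-03). Of the 17 Ery regulators, 22 heme and iron genes and 23 red cell membrane genes, 0 were called between knockout and P2- in either direction.

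Scin and Gja1 are P2- program genes whose knockout level was nearer to P2+ than to P2- and WT. Scin, an actin-severing protein gene, was at 3.93, 2.83 and 2.19 CPM in knockout and at 3.35, 4.35 and 1.53 CPM in P2+ libraries, which overlapped (-0.06 ± 0.41). It was at 29.5, 23.3 and 20.7 CPM in P2- and at 59.8, 67.0 and 54.0 CPM in WT (differences -3.03 and -4.34, adjusted p = 7.28e-04 and 1.07e-11). Gja1 (connexin 43) was at 22.4, 23.5 and 22.6 CPM in knockout, 19.5, 14.3 and 14.8 CPM in P2+, 60.9, 48.0 and 59.7 CPM in P2- and 57.1, 80.1 and 90.4 CPM in WT. Its level was thus near that of P2+ cells, and its small rise over P2+ (0.48 ± 0.15, adjusted p = 0.0243) was under 2-fold and passed the test with 1 library left out only for P2+ replicate 1 (adjusted p = 0.00769, and 0.0525 to 0.0779 without any 1 of the 5 others).

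All 3 knockout libraries lay below the 9 others for 161 genes (1.26%) and above them for 175 (1.37%). Of the first, 2 genes were called against each of the 3 groups, Ifitm1 and Gm7676. Ifitm1 (chr7:140967221-140969825), an interferon-induced membrane protein gene, was at 8.21, 7.28 and 3.73 CPM in knockout, 34.4, 40.4 and 25.7 CPM in P2+, 63.7, 67.0 and 65.5 CPM in WT and 28.8, 65.2 and 20.7 CPM in P2-. Its differences were -2.39 ± 0.26 from P2+, -3.35 ± 0.17 from WT and -2.57 from P2- (adjusted p = 4.91e-05, 7.70e-10 and 0.0161). Gm7676 (chr8:13896311-13896629) had a like profile, at 7.08, 5.82 and 4.46 CPM in knockout and 28.5, 41.5 and 30.8 CPM in P2+, but it is no second observation: 108 of the 290 words of 30 bases in its transcript (37.2%) also occur in Ifitm1 transcripts, so reads of the pair cannot be told apart with certainty. Of the neighbouring family members, Ifitm2 differed from P2+ by -0.16 ± 0.10 (adjusted p = 0.218) and Ifitm3 by -0.86 ± 0.14 (adjusted p = 7.10e-04). Of 36 interferon-stimulated genes 12 were higher and 2 lower at any fold, and 4 were called higher and 0 lower, where 3.03% of all genes were called higher. Those called included Irf7 (1.26 ± 0.13) and Oasl1 (1.54 ± 0.24), both with antisense overlaps. Of 14 MHC and 13 heat shock genes 0 were called.

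Other genes outside the range of all 9 libraries included Kcnc1, a potassium channel gene, at 2.27, 2.23 and 2.73 CPM in knockout, 6.96, 8.29 and 5.88 CPM in P2+ and 50.0, 44.8 and 41.1 CPM in WT (-1.56 ± 0.26 and -4.24 ± 0.16). Sdc2, a syndecan, fell by 1.5 on the log2 scale against P2+ (SE 0.31) and by 2.98 against WT (SE 0.21). On the high side, Cmah, an enzyme of sialic acid conversion, was at 67.1, 79.7 and 87.0 CPM in knockout, 3.61, 3.73 and 2.67 CPM in P2+, 7.28, 8.28 and 7.15 CPM in WT and 45.2, 35.3 and 37.4 CPM in P2-. It rose by 4.53 ± 0.16 against P2+ and 3.36 ± 0.13 against WT (adjusted p = 2.17e-08 and 1.07e-11), and was higher than P2- by just under 2-fold (0.98, adjusted p = 3.87e-03). Chst1, a sulfotransferase gene, was at 58.4, 73.7 and 68.2 CPM in knockout, 6.21, 8.98 and 3.59 CPM in P2+ and 8.81, 10.4 and 12.3 CPM in WT (3.39 ± 0.24 and 2.66 ± 0.13).

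Immediate early genes, which respond within minutes to stimulation or handling of cells, had 18 of 30 tested members called lower and 0 higher. This count changed with P2+ replicate 2 and with the method. Nr4a1 was at 1.84, 1.80 and 3.64 CPM in knockout and at 5.70, 189 and 3.89 CPM in P2+ libraries (-4.79 ± 1.35, adjusted p = 0.0168). Without that library its difference was -0.99 (adjusted p = 0.0539), and the list had 3 members lower and 1 higher. Cd69 was at 2.97, 3.00 and 3.10 CPM against 11.9, 172 and 11.8 CPM, and its difference of -4.45 ± 1.02 became -1.98. The count was 3 to 8 without 1 knockout library, 5 with DESeq2, 2 with limma voom, 0 with glmTreat, 9 with all 12 libraries in 1 fit, 11 with the replicate block and 32 of 36 with no low-count minimum. Leaving out P2+ replicate 2 gave 1475 called genes in all. It took the Mk receptors from 12 to 11 lower, the cargo genes from 9 to 10 lower and the Ery regulators from 6 to 5 higher, and left the red cell membrane genes at 13 higher.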

How the data were processed

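RNA was sequenced from 3 libraries each of WT, P2+, P2- and RUNX1C knockout PreMegEs. The deposited values are raw read counts per Ensembl gene. The authors made them from strand-specific poly(A) libraries (Agilent SureSelect, paired reads of 75 bases) aligned with Bowtie2 to GRCm38 and counted on Ensembl release 76 genes with featureCounts; whether counting used strand, and how reads with several matches were treated, is not given in the sources used here. The submitters' processing notes name R 3.1.0, SAMtools 0.1.19 and edgeR 3.8.5.

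Here counts were normalised by TMM and tested with edgeR 4.0.16 (quasi-likelihood F-test, Benjamini-Hochberg adjustment, R 4.3.3), fitted on the 2 groups compared, and a gene was tested if 3 or more of the 6 libraries reached 1 CPM. No covariate was used. Replicate numbers paired P2+ with P2- libraries (every same-number correlation of deviations was over 0.1) but not knockout with P2+, knockout with WT or P2- with WT, so a replicate block was an alternative. The test was also run on simulated counts with 200 changed genes. These were drawn with a common dispersion for all genes and no outlying library, so this run does not vouch for the calls reported here. Library totals are given with the results and limit precision at low counts. Since libraries were pools, p-values measure the spread between pools.

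The comparison, its members and 26 gene lists (467 of 475 genes found) were chosen with earlier results of these data known. Named genes were list members, the 10 largest rises and falls without overlap (10 CPM or more in the group with more), up to 8 leading genes of each program class (missing, kept) and 8 genes of each direction with knockout libraries outside the 9 others. Genes were placed with GENCODE vM21 (40254 of 41128 found). DESeq2 1.42.0, limma 3.58.1, other normalisations, filters and left-out libraries were alternatives. Values of some listed genes are not reported here.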

Additional observations from a re-analysis of the deposited data

How the results depend on the processing

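The counts that answer a comparison stayed within 1.5 times of their reported value under 96 of 108 alternatives, among them DESeq2 (1416 genes called in RUNX1C knockout against P2+), the edgeR exact test (1532), limma voom (1399) and no low-count minimum (1657). Of the counts of list members called in each direction, 443 stayed within 1.5 times and 51 did not, 11 of them for immediate early genes lower in the knockout. With a minimum of 5 CPM, 282 of 322 genes lower in P2- than in WT were lower in knockout than in P2+, and 232 genes were called in knockout against WT. A test against the 2-fold change itself (glmTreat) gave 464 genes in knockout against P2+, 247 of 585 P2+ program genes, 152 of 186 P2- program genes, 59 of 80 genes lower in P2- than in WT and 53 genes in knockout against WT. Without a fold minimum the same counts were 4748, 2122 of 2576, 1605 of 2174, 1050 of 1207 and 1910. Leaving out 1 library gave 1237 to 1475 genes in knockout against P2+, 767 to 890 P2+ program genes, 271 to 316 P2- program genes, 336 to 441 genes of the set lower in P2- than in WT, and 351 to 406 genes in knockout against WT. Alternatives for knockout against WT were chosen after seeing the data. So were, for the program counts and the set lower in P2- than in WT, DESeq2, limma voom, glmTreat, the joint fit and the pseudogene alternative. The same holds for the block in P2+ against P2- alone. It also holds for the removal of P2+ replicate 2 together with P2- replicate 2 (1475 genes called, 904 of 1269 P2+ program genes).

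Replicate numbers did not pair knockout with P2+ libraries: the correlations of deviations between same-numbered libraries were 0.12, -0.0182 and -0.0365, and not every library correlated best with its own number. With the replicate block 1403 genes were called in knockout against P2+, 905 of 1324 P2+ program genes, 307 of 426 P2- program genes, 392 of 445 genes lower in P2- than in WT and 449 genes in knockout against WT.

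Of the genes reported as near the P2+ level, Gata2, Itga9, Fhdc1 and Scin changed sign around 0. With 1 library left out Gata2 ranged from -0.058 (without P2+ replicate 1) to 0.067, with -0.0109 without knockout replicate 3, Itga9 from -0.296 to 0.0852 (without P2+ replicate 3), Fhdc1 from -0.286 to 0.0139 (without P2+ replicate 2) and Scin from -0.385 to 0.287 (without P2+ replicate 2), with 0.11 without knockout replicate 3. Gata2 was at -0.0025 with a 5 CPM minimum and at -0.0041 with upper quartile factors, and Scin at 0.0212 with limma voom. The cause of these shifts was not tested. Counts near 1 CPM are few and 3 libraries a group limit precision there, and the smallest difference that could be detected was not worked out.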
